A study of Mus musculus with 12 samples.

Results

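The Hox cluster genes were followed in RNA sequencing of 12 whole mouse brains. Members were the protein-coding genes whose symbol begins with Hoxa, Hoxb, Hoxc or Hoxd followed by a number, which gives 39 genes in the GENCODE M21 annotation. Of these, 38 were matched by Ensembl identifier to the 38924 genes of the tables, and Hoxd4 was not analysed here. Within the family the members were chosen by symbol, whatever their level, but the family itself was selected on earlier results of these data, the fold changes and calls of Hoxb8 and Hoxa7 in h1 among them. The h1 values below are therefore a description and no independent support for those calls. The h2, h4 and mean comparisons use the same wild type libraries, and the sums over the family hold both genes. They give no independent support either.

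All mice were 6 weeks old, with 3 mice per genotype and 1 library per mouse. Wild type (WT) mice and mice homozygous for the h1 allele of Rorb were on the C57BL/6J background. Mice homozygous for h2 were on B6(Cg)-Tyrc-2J/J, which carries an albino allele of Tyr, and mice homozygous for h4 were on B6.129S7-Il1r1tm1Imx/J, which carries a targeted allele of Il1r1. For h2 and h4, allele and background cannot be told apart. Rorb, the mutated gene, codes for a nuclear receptor with no settled ligand. In CPM, expected counts scaled to a common library size, Rorb ranged over 16.3 to 18.5 (WT), 22.8 to 33.4 (h1), 22.5 to 31.1 (h2) and 8.55 to 9.06 (h4), so that h4 lay below WT and the other mutants above it. Xist, the transcript that coats the inactive X chromosome of females, was high in all 3 WT libraries but in only 1 of 3 in h1, 1 of 3 in h2 and 2 of 3 in h4. Libraries held 14513825 to 24694178 expected counts.

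Hox genes encode homeodomain transcription factors that give cells along the head to tail axis their positional identity. They lie in clusters, and within a cluster the order of the genes follows the order of their anterior limits of expression, so genes of low paralogue number reach into the hindbrain and genes of high number start further back in the spinal cord. Expression set up in the embryo is partly kept in the adult, where forebrain and midbrain neurons have little or no Hox RNA. In whole brain RNA, a lower level from fewer Hox-expressing cells and one from less RNA per cell cannot be told apart.

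The clusters lie on 4 chromosomes (GRCm38): Hoxa with 11 genes at chr6:52155590-52260880, Hoxb with 10 at chr11:96194316-96368256, Hoxc with 9 at chr15:102921103-103036852 and Hoxd with 9 at chr2:74668310-74765142. Genes of the miR-196 family, miRNAs known to act on Hox messages, lie inside the Hoxa, Hoxb and Hoxc clusters. Their mature sequences (RefSeq, GRCm38.p6) are shown because Hoxb8 and Hoxa7, called below, carry matches to them. Capitals mark the seed, bases 2 to 8, which both share.
mmu-miR-196a-5p: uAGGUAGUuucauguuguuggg
mmu-miR-196b-5p: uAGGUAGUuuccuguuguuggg
The 7-base seed match ACTACCT, searched on the transcribed strand only, was present in the annotated 3' UTR of 9 of 39 Hox genes and of 6.10% of 20964 genes with a 3' UTR. Hoxa7 had 4 matches and Hoxc8 had 2. Hoxb8 had no exact seed match but a stretch, beginning at base 418 of its 3' UTR, in which 21 of 22 bases pair with miR-196a by the Watson-Crick rule, the exception facing miRNA base 5. Capitals mark the bases that face the seed.
Hoxb8 site: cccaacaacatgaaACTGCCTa
The libraries were made from polyadenylated RNA, and the miRNA genes Mir196a-1, Mir196a-2, Mir196b, Mir10a, Mir10b and Mir615 had 0 counts in every library, which says nothing of the mature miRNAs.

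The 250 bases before the RefSeq start are printed for 3 genes whose window holds no annotated exon: Hoxb8 and Hoxd8, of groups 6 to 9 described below, and Hoxb4, of groups 1 to 5. Capitals mark AGGTCA, the half-site that nuclear receptors of the ROR family are known to bind, or its reverse complement TGACCT.
Hoxb8, chr11:96281655-96281904, plus strand: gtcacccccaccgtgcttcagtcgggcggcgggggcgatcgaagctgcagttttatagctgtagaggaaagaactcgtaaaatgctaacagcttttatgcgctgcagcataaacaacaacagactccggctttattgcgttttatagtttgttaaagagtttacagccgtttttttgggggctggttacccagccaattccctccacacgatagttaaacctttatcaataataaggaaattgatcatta
Hoxd8, chr2:74704365-74704614, plus strand: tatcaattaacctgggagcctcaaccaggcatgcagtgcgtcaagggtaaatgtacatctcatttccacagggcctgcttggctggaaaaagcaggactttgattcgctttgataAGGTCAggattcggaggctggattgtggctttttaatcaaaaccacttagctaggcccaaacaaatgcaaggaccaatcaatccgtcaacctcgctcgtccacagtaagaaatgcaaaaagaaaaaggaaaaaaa
Hoxb4, chr11:96318017-96318266, plus strand: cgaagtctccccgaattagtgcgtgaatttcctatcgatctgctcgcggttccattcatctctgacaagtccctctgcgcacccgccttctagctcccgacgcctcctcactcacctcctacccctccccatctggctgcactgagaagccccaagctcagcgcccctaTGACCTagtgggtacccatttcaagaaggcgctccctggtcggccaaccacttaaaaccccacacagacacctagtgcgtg
On either strand, AGGTCA was in 6 of the 24 Hox entries of this table (22 genes) and in 14.02% of 32851 promoters of the same length. The composite motif TGATTNAT, bound by PBX with HOX proteins, was in 2 of the 24 and in 2.82% of all, and in none of the 3 windows shown. Among the tested genes, Hoxa2 and Hoxa5 also have a window with no annotated exon and are not printed. Neither holds AGGTCA, and Hoxa2 holds TGATTNAT. A match describes letters in a window and shows no binding.

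Of the 38 members, 12 had 0 counts in all 12 libraries, 7 had a few counts and did not pass the low-count filter, and 19 were tested. All members of paralogue groups 11 and 12 were at 0, and in groups 10 and 13 Hoxa10 and Hoxd13 alone had counts, at most 2 per library. The other members at 0 were Hoxb1, Hoxc9, Hoxc10, Hoxd10, Hoxa13, Hoxb13 and Hoxc13. A count of 0 allows up to 3 counts, or 0.122 to 0.207 CPM depending on the library, from counting error alone. The 19 tested members all belong to groups 2 to 9, with means of 0.415 to 4.56 CPM and 1 to 124 counts per library, so counting error is a large part of the spread for most of them. The whole family summed to at most 33.6 CPM in a library.

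Per transcript length, in the deposited TPM (transcript abundance corrected for length) averaged over 12 libraries, Hoxb8 was the highest at 5.42, followed by Hoxb5 at 3.28, Hoxa5 at 2.90, Hoxb6 at 2.24, Hoxd3 at 2.23 and Hoxc4 at 2.06. Hoxb8 is known for its part in sensory circuits of the spinal dorsal horn and for excessive grooming in its mutants, and Hoxa5 for the phrenic motor neurons that drive breathing. Hoxb3, Hoxb7, Hoxa4, Hoxb2 and Hoxc5 lay between 1.10 and 1.76 TPM, and the other 8 tested members between 0.388 and 0.998. In this order the ranges of neighbouring genes over the 12 libraries overlapped in 17 of 18 pairs, so neighbours are mostly not separated. Over the libraries Hoxb8 spanned 3.92 to 8.09 TPM and 3.35 to 5.53 CPM.

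**Figure D1:**
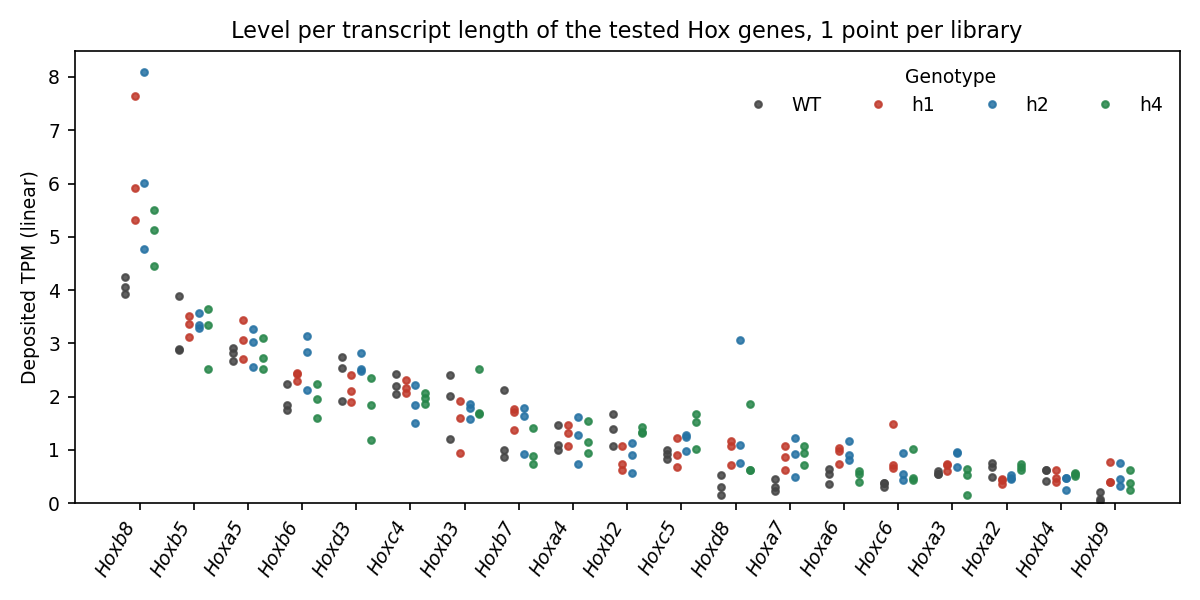
Deposited TPM (linear axis) of the 19 tested Hox genes, ordered by mean, with 1 point per library coloured by genotype. Hoxb8 reaches 8.09 TPM and the WT points of Hoxb8 lie below all its mutant points, while Hoxb5, Hoxa5 and Hoxc4 overlap between genotypes.

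Relative to WT, the summed RNA of paralogue groups 6 to 9 was higher in every mutant library, whereas that of groups 1 to 5 overlapped between genotypes. In edgeR's quasi-likelihood test with Benjamini-Hochberg adjustment over 16493 genes, 3 of 19 members were called higher in h1 (0.418% of all genes were), Hoxa7, Hoxb8 and Hoxb9. In h2, 2 of 19 were called higher (0.346% of all genes), Hoxa7 and Hoxb9, and in h4 1 of 19 (1.62% of all genes), Hoxa7. No member was called lower in h1 (0.206% of all genes), h2 (0.346%) or h4 (2.91%). At an unadjusted p under 0.05 the counts in either direction were 7 in h1 (9.8% of all genes), 6 in h2 (11.5%) and 4 in h4 (17.6%). The 3 comparisons share the WT libraries, so they are not independent of each other. The calls rest on few libraries, as the values below show for each gene. The low-count filter asks for about 10 counts in at least 3 libraries. Hoxa7, Hoxb9 and Hoxc6 had at most 6 counts in any WT library, so they passed it only through mutant libraries. Hoxa6 (11, 6 and 9 counts) and Hoxd8 (8, 4 and 14) reached 10 counts in only 1 WT library each, so they needed mutant libraries too. The place of all these genes among the 19 tested members, and the calls of Hoxa7 and Hoxb9, are thus not independent of their higher mutant values.

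Hoxa7 (chr6:52214491-52221854, minus strand), known for patterning the thoracic skeleton, gave 0.281, 0.161 and 0.297 CPM (WT), 1.04, 0.609 and 0.849 (h1), 0.483, 1.18 and 0.872 (h2), and 1.04, 0.706 and 0.895 (h4). The 9 mutant libraries all lay above the 3 WT libraries, and h2 replicate 1, the shallowest library with 7 counts of the gene, lay lowest among them. Hoxa7 rose by 1.77 on the log2 scale in h1 (SE 0.41, edgeR adjusted p = 0.0393). The rise was 1.88 in h2 (SE 0.41, edgeR adjusted p = 0.0247) and 1.86 in h4 (SE 0.42, edgeR adjusted p = 0.00979). These folds rest on 3.46 to 6.00 expected counts per WT library. With any 1 of the 12 libraries left out the log2 fold change stayed between 1.497 and 2.09 over the 3 mutants. The call held in 5 (h1), 8 (h2) and 10 (h4) of 12 such fits, and it was lost in all 3 mutants without WT replicate 2 (log2 fold changes 1.497, 1.61 and 1.59). In h1 it was also lost without any other WT or h1 library or h4 replicate 1, in h2 without WT replicate 1 or h2 replicate 2 or 3, and in h4 without h4 replicate 1.

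Hoxb8 (chr11:96281905-96285315, plus strand) gave 3.60, 3.35 and 4.01 CPM (WT), 5.53, 5.25 and 5.17 (h1), 4.97, 5.04 and 4.55 (h2), and 4.37, 4.40 and 4.53 (h4). No mutant library reached down to the WT range, and h1 lay highest, above every h2 and h4 library. On the log2 scale Hoxb8 rose by 0.54 in h1 (SE 0.12, edgeR adjusted p = 0.0311). The h2 value was 0.41 (SE 0.125, edgeR adjusted p = 0.143) and the h4 value 0.28 (SE 0.13, edgeR adjusted p = 0.250), neither of them called. Leaving out 1 library kept the h1 value between 0.48 and 0.60, and the call was lost without WT replicate 1, WT replicate 2 or any 1 of the h1 libraries.

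Hoxb9 (chr11:96271457-96276595, plus strand), a gene of thoracic identity, had 3, 1 and 2 counts (WT), 10, 21 and 12 (h1), 6, 14 and 20 (h2), and 4, 4 and 8 (h4). Scaled to CPM, WT spanned 0.0465 to 0.140, h1 spanned 0.494 to 0.984, h2 spanned 0.414 to 0.843 and h4 spanned 0.217 to 0.447, so no mutant library overlapped WT. On the log2 scale Hoxb9 rose by 2.71 in h1 (SE 0.54, edgeR adjusted p = 0.0119) and by 2.65 in h2 (SE 0.55, edgeR adjusted p = 0.0192). In h4 the value was 1.56 (SE 0.66, edgeR adjusted p = 0.198). With only 6 counts over the 3 WT libraries the size of the fold is loosely set. Without WT replicate 2 it was 2.39 in h1 and 2.33 in h2, without WT replicate 1 it was 3.09 and 3.03, and neither gave a call. The h1 call was also lost without h1 replicate 2 and the h2 call without h2 replicate 2 or 3.

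Hoxd8 (chr2:74704615-74707933, plus strand) was not called, with log2 fold changes of 1.38 in h1 (SE 0.39, edgeR adjusted p = 0.121), 1.44 in h2 (SE 0.39, edgeR adjusted p = 0.0890) and 1.02 in h4 (SE 0.42, edgeR adjusted p = 0.189). Its libraries gave 0.375, 0.186 and 0.693 CPM (WT), 0.938, 1.41 and 0.924 (h1), 0.897, 1.58 and 0.843 (h2), and 0.601, 0.760 and 1.17 (h4). WT replicate 3 stands above the other WT libraries and within the h4 range. Without WT replicate 3 the log2 fold change of Hoxd8 passed the threshold in h1 (1.93, edgeR adjusted p = 0.0352) and h2 (1.99, edgeR adjusted p = 0.0188), but not in h4 (1.56, edgeR adjusted p = 0.0506). With no low-count filter it was called in h1 (edgeR adjusted p = 0.0199) and h2 (edgeR adjusted p = 0.0106).

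**Figure D2:**
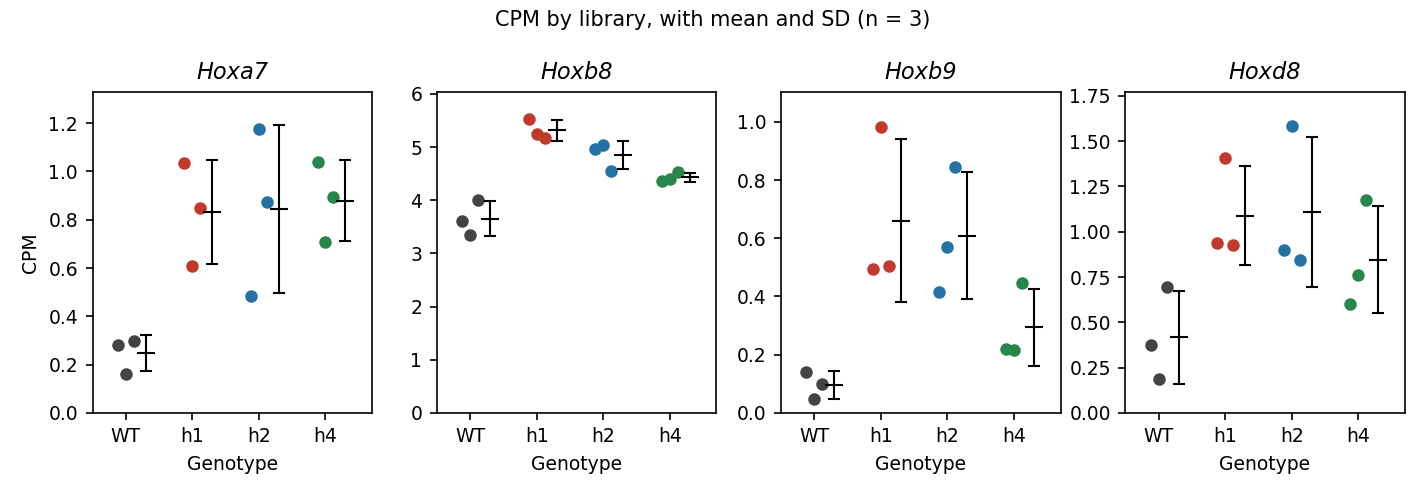
CPM of Hoxa7, Hoxb8, Hoxb9 and Hoxd8 by genotype on axes that start at 0, with 1 point per library and the mean with its SD (n = 3) beside them. WT lies below every mutant library for Hoxa7, Hoxb8 and Hoxb9, and WT replicate 3 of Hoxd8, at 0.693 CPM, lies among the h4 libraries.

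The other tested genes of groups 6 to 9 were not called. Hoxa6 and Hoxc6, the latter known from brachial motor neurons, had log2 fold changes of 0.85 (SE 0.35, edgeR adjusted p = 0.376) and 1.14 (SE 0.46, edgeR adjusted p = 0.364) in h1 and 0.91 and 0.93 in h2 (edgeR adjusted p = 0.289 and 0.453), without overlap with WT but not called. In h4 Hoxa6 overlapped WT at 0.03 (edgeR adjusted p = 0.983), and Hoxc6 did not overlap, at 0.91 (edgeR adjusted p = 0.337). Hoxb6 gave 1.31, 1.21 and 1.58 CPM (WT), 1.63, 1.73 and 1.76 (h1), 2.35, 1.99 and 1.56 (h2), and 1.15, 1.41 and 1.57 (h4). Its h1 libraries lay just above WT, and its h2 and h4 libraries overlapped WT. Hoxb7 overlapped WT in all 3 mutants, with log2 fold changes of 0.32, 0.19 and -0.37.

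Among the members that did not pass the filter, Hoxc8, which sets motor neuron identity at forelimb levels, had 0 counts in each WT library. Its counts were 7, 2 and 5 (h1), 0, 19 and 5 (h2), and 6, 0 and 3 (h4). Set against a floor of 3 counts over the WT group, its CPM was 4.50-fold in h1, 8.03-fold in h2 and 3.46-fold in h4. These values allow for no counting error in the mutants, so they are not lower limits. In h2, 19 of the 24 counts came from replicate 2. The filter kept it out of the test, and in the fit with no low-count filter its edgeR adjusted p was 0.214 in h1, 0.0487 in h2 and 0.171 in h4. Hoxa9 also had 0 counts in WT and 3, 7 and 1 in h1, h2 and h4, and Hoxd9 had 0 in WT and 3, 2 and 2. Hoxd1, of group 1, summed to 20 (WT), 13 (h1), 26 (h2) and 15 (h4) counts and was not tested.

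The genes of groups 1 to 5, which reach into the hindbrain, mostly overlapped between genotypes. Hoxb5 gave 3.93, 5.30 and 4.01 CPM (WT), 4.35, 4.73 and 4.96 (h1), 4.69, 4.92 and 4.55 (h2), and 3.55, 4.72 and 5.03 (h4). Hoxa5 gave 2.53, 2.46 and 2.38 CPM (WT), 3.06, 2.76 and 2.44 (h1), 2.35, 2.88 and 2.66 (h2), and 2.46, 2.28 and 2.74 (h4). The genotypes overlapped for both genes, with log2 fold changes between 0.00 and 0.16. Hoxc4 gave 2.25, 1.91 and 2.08 CPM (WT), 2.07, 1.97 and 2.23 (h1), 2.14, 1.42 and 1.73 (h2), and 1.97, 1.79 and 1.85 (h4). Hoxc5 gave 1.17, 1.30 and 1.44 CPM (WT), 0.988, 1.78 and 1.09 (h1), 1.86, 1.83 and 1.39 (h2), and 0.819, 1.14 and 2.18 (h4). Neither separated a mutant from WT. Hoxb4 gave 1.26, 0.837 and 1.34 CPM (WT), 1.33, 1.03 and 0.840 (h1), 1.04, 0.975 and 0.506 (h2), and 1.09, 1.19 and 1.12 (h4), again with overlap. Hoxd3 gave 2.29, 2.28 and 2.28 CPM (WT), 2.12, 2.30 and 2.60 (h1), 2.97, 2.60 and 2.61 (h2), and 1.37, 2.12 and 2.89 (h4). The h2 libraries of Hoxd3 and Hoxa3 lay above WT without overlap, Hoxa3 at a log2 value of 0.54 that was not called (SE 0.32, edgeR adjusted p = 0.544). Hoxd3 lay just above WT, at a value of 0.24 on the log2 scale that was not called (SE 0.19, edgeR adjusted p = 0.698).

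The group 2 genes went the other way in h1 and h2 without passing the test. Hoxa2, which patterns the second pharyngeal arch and anterior hindbrain, had a value of -0.60 on the log2 scale in h1 (SE 0.32, edgeR adjusted p = 0.562) and -0.38 in h2 (edgeR adjusted p = 0.711). Hoxb2, which acts in the hindbrain with the facial motor neurons, had -0.65 in h1 (SE 0.28, edgeR adjusted p = 0.419) and -0.50 in h2 (edgeR adjusted p = 0.504). Both genes together summed to 1.86, 1.83 and 1.92 CPM (WT), 1.10, 1.16 and 1.35 (h1), 1.22, 1.48 and 1.33 (h2), and 2.02, 1.95 and 1.94 (h4). The h1 and h2 sums lay below WT and the h4 sums above it. Hoxa2, Hoxb2, Hoxa3, Hoxb3, Hoxd3 and Hoxa7 have some expected counts that are not whole, since RSEM divides reads that match several transcripts by estimation.

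Counting all 19 tested members, 7 lay above WT without overlap in h1 (7.36% of all genes did) and 2 below (7.13%), 8 above (7.68%) and 1 below (7.91%) in h2, and 4 above (10.8%) and 0 below (10.4%) in h4. Their median log2 fold changes were 0.14 (h1), 0.24 (h2) and 0.04 (h4), against 0.00, 0.00 and 0.01 over all genes tested. The medians hide a division by position. For the 8 tested genes of groups 6 to 9 the medians were 0.99 (h1), 0.92 (h2) and 0.60 (h4), with 8, 8 and 7 of the 8 above 0. For the 11 tested genes of groups 1 to 5 it was 0.04, 0.10 and 0.02. The division between groups 5 and 6 was chosen after the values were seen, so these numbers describe the pattern and test nothing. Hoxa6, Hoxa7, Hoxb9, Hoxc6 and Hoxd8, which would not have passed the low-count filter without mutant libraries, are among the 8 genes, which favours values above 0.

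**Figure D3:**
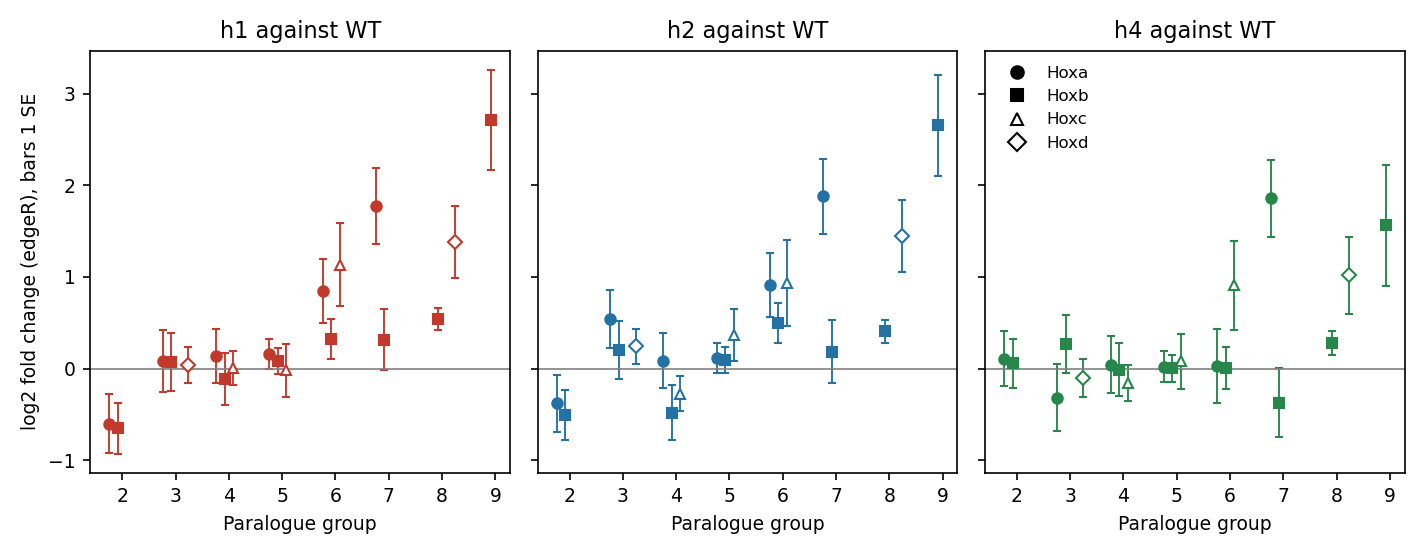
edgeR log2 fold change against WT (y axis, bars 1 SE) of each tested Hox gene by paralogue group (x axis) in h1, h2 and h4, with the symbol giving the cluster. Values lie between -0.48 and 0.54 in groups 3 to 5, the group 2 genes lie below 0 in h1 and h2, and the largest values, Hoxb9 at 2.71 in h1 and 2.65 in h2 and Hoxa7 at 1.86 in h4, lie in groups 7 and 9.

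Summed over groups 6 to 9, Hox RNA came to 7.07, 6.67 and 7.92 CPM (WT), 12.3, 12.6 and 11.6 (h1), 10.8, 13.7 and 11.4 (h2), and 9.39, 9.18 and 10.1 (h4). Every mutant library was above every WT library, and every h4 library was below every h1 and h2 library. WT averaged 7.22 ± 0.641, h1 averaged 12.2 ± 0.515, h2 averaged 11.9 ± 1.54 and h4 averaged 9.56 ± 0.494 CPM (SD, n = 3), or 1.69, 1.65 and 1.32 times WT. Without Hoxb8, which gives much of the sum, the means were 3.57, 6.90, 7.09 and 5.13 CPM. For groups 1 to 5, WT averaged 18.5 ± 0.362, h1 averaged 18.4 ± 0.223, h2 averaged 19.1 ± 0.657 and h4 averaged 18.1 ± 2.71 CPM (SD, n = 3). The wide h4 value comes from libraries at 15.6, 17.9 and 20.9 CPM. Dividing the sum of groups 6 to 9 by that of groups 1 to 5 gave 0.391 ± 0.0386 for WT, 0.664 ± 0.0269 for h1, 0.624 ± 0.0621 for h2 and 0.534 ± 0.0627 for h4 (SD, n = 3). The WT libraries, at most 0.431, lay below the lowest mutant library at 0.483. By paralogue group the ratio of mean CPM to WT was 7.91, 7.68 and 3.66 in group 9 for h1, h2 and h4, on 6 counts in WT, and 0.645, 0.719 and 1.055 in group 2.

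**Figure D4:**
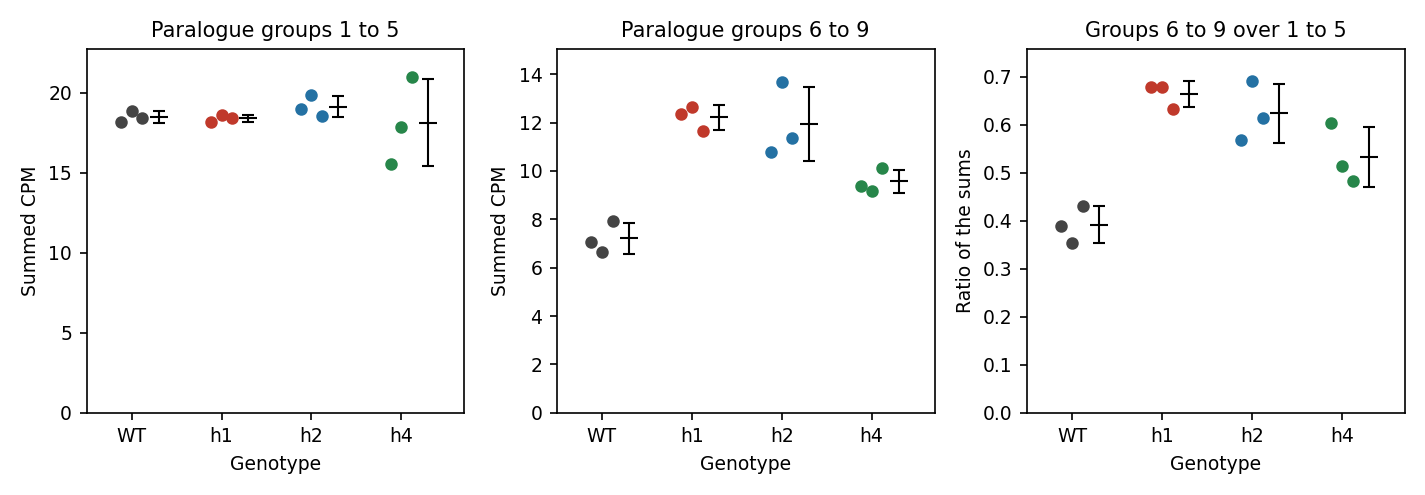
Summed CPM of paralogue groups 1 to 5 and 6 to 9, and the ratio of the sums, by genotype on axes that start at 0, with 1 point per library and the mean with its SD (n = 3). The sum of groups 6 to 9 is at most 7.92 CPM in WT and at least 9.18 in the mutants, while groups 1 to 5 overlap between genotypes.

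By cluster, the mean sums were 5.77, 6.93, 7.15 and 6.21 CPM for Hoxa in WT, h1, h2 and h4, 13.2, 15.8, 15.4 and 14.3 for Hoxb, 3.65, 4.20, 4.28 and 3.92 for Hoxc, and 3.05, 3.72, 4.29 and 3.32 for Hoxd. By these means WT was lowest in all 4 clusters and h4 lay nearest to it, but the h4 libraries overlapped WT in every cluster. For Hoxd they spanned 2.29 to 4.29 CPM, against 2.56 to 3.47 in WT. The h1 libraries also overlapped WT for Hoxd, and the h2 libraries for Hoxc. Of the non-coding genes inside the clusters, Hoxb3os and Haglr passed the filter and neither was called in any comparison. On the log2 scale Hoxb3os differed from WT by 0.00, 0.16 and 0.10 (h1, h2, h4) and Haglr by -0.25, 0.15 and 0.43. The library kit does not mark strand, so reads of a Hox gene and of an antisense partner such as Hoxb3os cannot be told apart, and the models of Hoxa3, Hoxb3, Hoxc5 and Hoxd3 in the annotation extend across or next to other Hox genes.

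Averaged over the mutants, 3 of 19 members were called higher than WT (0.485% of all genes were), Hoxa7 by 1.84 on the log2 scale (SE 0.36, edgeR adjusted p = 0.00841), Hoxb8 by 0.41 (SE 0.10, edgeR adjusted p = 0.0471) and Hoxb9 by 2.31 (SE 0.51, edgeR adjusted p = 0.0200). None was called lower (0.612% of all genes). The Hoxb8 call held in 2 of 12 fits that left out a library, those without WT replicate 3 or h2 replicate 3, and those of Hoxa7 and Hoxb9 were lost without WT replicate 1 or WT replicate 2.

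Between the mutants no member was called by edgeR in h2 against h1 (0.722% of all genes were), h4 against h1 (4.64%) or h4 against h2 (3.22%). At an unadjusted p under 0.05 the counts were 0 (9.48% of all genes), 5 (19.1%) and 4 (16.8%), and DESeq2 also called none. Of the 8 tested genes of groups 6 to 9, 7 had negative log2 fold changes in h4 against h1 and 8 in h4 against h2, with medians of -0.34 and -0.46. Hoxb9 had the lowest of these values, -1.15 (SE 0.45) and -1.09 (SE 0.45), and Hoxa7 was near 0 in both, at 0.09 and -0.02. The missing calls do not show that the mutants have equal levels.

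The Xist composition differs between WT and the mutants, and the mutant libraries with high Xist can be set beside WT, where all libraries are high. Their sums of groups 6 to 9 were 12.3 CPM in h1 replicate 1, 13.7 in h2 replicate 2, and 9.39 and 10.1 in h4 replicates 1 and 3, all above the WT maximum of 7.92. They rest on 1 library each in h1 and h2, and WT has no library with low Xist, so sex and genotype cannot be fully told apart. With Xist as a covariate Hoxa7 alone was called in each mutant, at log2 fold changes of 2.15, 2.204 and 2.02 (edgeR adjusted p = 0.0246, 0.00976 and 0.00348), and the h1 calls of Hoxb8 and Hoxb9 were lost, at 0.59 and 2.55 (edgeR adjusted p = 0.109 and 0.0971).

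Hox genes also mark how much hindbrain and spinal tissue a dissection holds, so other genes listed for these regions were examined. Of 33 hindbrain and spinal neuron genes, 29 were tested and none was called in any mutant against WT, with median log2 fold changes of -0.07, -0.13 and -0.11. None of the 33 was at 0 in all libraries. Their sums overlapped, at 258 to 284 CPM (WT), 255 to 273 (h1), 259 to 270.4 (h2) and 252 to 273 (h4). Slc32a1, found in inhibitory neurons of other brain regions as well, alone averaged 99.4 CPM over the 12 libraries. A large part of each sum thus came from 1 gene that is not particular to these regions. The sum therefore need not follow the amount of hindbrain and spinal tissue, and a difference in dissection was not tested. Slc6a5, the glycine transporter of inhibitory neurons in hindbrain and spinal cord, was at 59.4, 58.5 and 51.3 CPM in WT and 52.0 to 62.6 in the mutants. Of 14 genes of peripheral nerve, ganglion and muscle, 8 were tested and none was called against WT, with sums of 95.2 to 99.8 CPM in WT and 90.0 to 98.4 in the mutants. Of 16 cerebellar genes none was called in h1 or h2, and in h4 Itpr1, a calcium channel of Purkinje cells, fell, as did 2.91% of all genes (log2 fold change -0.21, edgeR adjusted p = 0.00402). Of 18 forebrain genes none was called in h1 or h2, and in h4 Rasgrf2 (log2 fold change -0.14, edgeR adjusted p = 0.0210) and Tbr1 (-0.19, edgeR adjusted p = 0.0341) were among those that fell.

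Some genes of the oligodendrocyte list, not all of which encode myelin proteins, rose in the mutants. Of 18 tested, h1 had 11 that rose (0.418% of all genes did), h2 had 5 (0.346%) and h4 had 3 (1.62%), and none fell. Mbp had log2 fold changes of 0.34 in h1 and 0.17 in h2, and Ptgds had 0.38, 0.34 and 0.51 in h1, h2 and h4. The 3 genes of h4 were Ptgds, Apod and Opalin, and Mbp was not called there. The sums of the 18 genes were 12022 to 13590 CPM (WT), 15549 to 16043 (h1), 13612 to 14550 (h2) and 13679 to 14557 (h4). Every mutant library thus lay above every WT library in this sum as it did in the sum of Hox groups 6 to 9. The list's part in the Hox result was not tested. None of 15 tested midbrain and thalamic genes was called in any mutant against WT. Of the meningeal and choroid plexus genes, 1 of 16 rose and 1 fell in h1 (0.206% of all genes fell), 2 rose in h2 and 3 in h4, and of 11 endothelial genes 3 fell in h1 and none was called in h2 or h4.

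**Figure D5:**
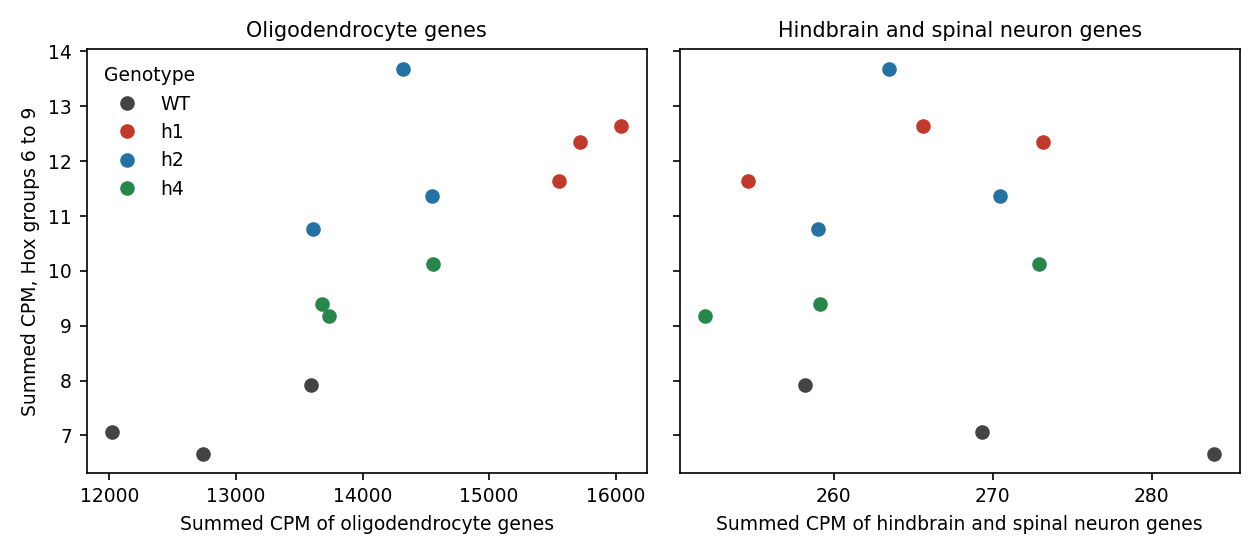
Summed CPM of Hox groups 6 to 9 (y axis) against that of 18 oligodendrocyte genes (left) and 33 hindbrain and spinal neuron genes (right), with 1 point per library coloured by genotype and neither axis starting at 0. Oligodendrocyte sums are highest in h1, at 15549 to 16043 CPM, and lowest in WT, whereas the sums of neuron genes overlap between genotypes.

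Few genes that act with or on Hox genes were called. None of 9 TALE class cofactors, the PBX, MEIS and PKNOX partners that bind DNA with HOX proteins, was called in any mutant against WT. None of 25 Polycomb and Trithorax genes, which keep Hox clusters silent or active, was called against WT, and Kmt2a lay at 219 to 236 CPM in WT and 175 to 216 in the mutants, without overlap. Between mutants, Kdm6b (0.30, edgeR adjusted p = 0.00759) and Bmi1 (0.17, edgeR adjusted p = 0.0477) were higher in h4 than in h1. In that comparison 4.64% of all genes were called in either direction. Gdf11, an axial regulator, was higher in h2 than in h1 (0.29, edgeR adjusted p = 0.0391), where 0.722% of all genes were called. Of 17 axial regulators 12 were tested, and Aldh1a2, an enzyme that makes retinoic acid, fell in h1 (log2 fold change -0.49, SE 0.10, edgeR adjusted p = 0.0109). It was at 15.1, 16.8 and 18.1 CPM in WT and at 13.3, 10.0 and 12.2 in h1.

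The genes whose log2(CPM + 0.5) followed the Hox sum most closely over the 12 libraries, among genes of at least 1 CPM outside the family and with no Gm or Rik names, were Bcas1 (Pearson r 0.909, Spearman rho 0.867), Parp4 (0.888, 0.881), Trf (0.879, 0.846), Pdlim2 (0.867, 0.881) and Cd82 (0.865, 0.713). Nrap, Plekhb1, Prr18, Omg and Tmbim1 followed at r of 0.839 to 0.851. They were picked as the 10 highest of all genes tested, the libraries share 4 genotype means, and within genotypes r was 0.502 to 0.727. Without the 2 libraries farthest from the median Hox sum r was 0.784 to 0.951. Bcas1, Trf, Plekhb1 and Omg are known from oligodendrocytes and myelin.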

How the data were processed

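Whole brain RNA of 12 mice was sequenced, and the authors deposited 1 table of RSEM output per library with expected counts and TPM. The submitters' processing notes name RSEM 1.2.12 and Bowtie2 2.2.0. No source used here gives the genome build or the gene annotation. The deposited TPM is normalised to transcript length and library, per the file headers, and was used for comparing genes with each other. Deposited FPKM was not used. Expected counts deposited by the authors were rounded and tested with edgeR 4.0.16 in R 4.3.3 (TMM, filterByExpr with a minimum count of 10, robust quasi-likelihood fit, 1 mean per genotype over 12 libraries). The filter left 16493 genes, and a call is a Benjamini-Hochberg adjusted p under 0.05 over all of them. CPM is the expected count over the TMM-scaled library total. Symbols came from GENCODE M21 for 37607 of 38924 identifiers. The steps were checked on simulated counts. P-values measure spread between separate mice.

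Members and lists were chosen with earlier results of these data known. By the naming rule, values in each library are given for members with a mean of at least 1 CPM or called in any comparison, and per list for up to 4 called members, or up to 2 of highest CPM. Hoxa2, Hoxb2, Hoxa6, Hoxc6, Hoxb7, Hoxd8, Slc6a5, Aldh1a2 and Kmt2a were given further values after these were seen. Alternatives were DESeq2 1.42.0, RLE factors, no low-count filter, an Xist covariate, the compared groups only and leaving out each library. DESeq2 without independent filtering and the sums by paralogue groups were added after seeing the data. Values of some listed genes are not reported here.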

Additional observations from a re-analysis of the deposited data

How the results depend on the processing

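Counts of called Hox genes depended on the processing. Against 3 in h1, 2 in h2, 1 in h4 and 3 for the mean of mutants, an Xist covariate gave 1 in each, Hoxa7. DESeq2 gave 0 in h1 and 0 in h2 among 17 members with an adjusted p, and no adjusted p for any member in h4 or the mean. Without its independent filtering, tried after seeing the data, it gave 1 in h1 (Hoxb9), 0 in h2, and 1 each in h4 and the mean (Hoxa7). With no low-count filter h1 had 4, with Hoxd8 added, and h2 had 4, with Hoxd8 and Hoxc8 added, and with the compared groups only h2 had 1. Leaving out 1 library gave 0 to 3 in h1, 0 to 3 in h2, 0 to 1 in h4 and 0 to 4 for the mean. The count was 0 in h1 without WT replicate 1, WT replicate 2 or h1 replicate 2, in h2 without WT replicate 1, WT replicate 2, h2 replicate 2 or h2 replicate 3, in h4 without WT replicate 2 or h4 replicate 1, and for the mean without WT replicate 1 or WT replicate 2. The cause was not tested. RLE factors changed no count. Between mutants every alternative gave 0, also with the title number of h1 and h2 as a replicate block. No label says that those numbers pair the mice. Libraries of the same number had correlations of -0.181, -0.141 and 0.0409, which cannot settle whether they are paired. No other paired fit was possible because the other titles share no such number. Without Hoxb8 the mean Hox sum fell from 25.7, 30.7, 31.1 and 27.7 CPM in WT, h1, h2 and h4 to 22.1, 25.4, 26.2 and 23.3. Among 448 further alternative values of single genes and of the sums by paralogue group, 0 reversed, 384 stayed, 53 lost the call, 7 gained it and 4 moved, the sums of groups 6 to 9 without Hoxb8. Many of the 448 were never called and could not lose a call, so the 384 do not measure how stable the calls are. A called gene kept its call in 4 of 16 (Hoxb8, mean of mutants) to 15 of 17 (Hoxa7, h4) alternatives with an adjusted p. With 1 to 124 counts per library, smaller differences were not detectable at this depth.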
